A study of Homo sapiens with 24 samples.

Results

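The mitotic kinesins are 10 genes, KIF11, KIF15, KIFC1, KIF2C, KIF4A, KIF18A, KIF22, KIF14, KIF20A and KIF23, out of 20045 genes with an annotated probe on the Illumina HumanHT-12 arrays. They were chosen by name as motors of the dividing cell, and every probe annotated to them, 13 in all, was taken. The 24 arrays measured RNA of the human multiple myeloma line MM1S, which is sensitive to glucocorticoids, and of MM1R, a resistant subclone obtained from MM1S by chronic exposure to dexamethasone (Dex), so that each line stands for 1 genetic background. In the Dex experiment both lines were left untreated or kept for 72 h with 1 µM Dex, and in the transfection experiment both were electroporated with a mock control or with 150 nM of a synthetic mir-150-5p mimetic and also kept for 72 h. Each of the 8 groups holds 3 arrays, which came from independent experiments per the methods of the study. The comparisons ask how the motors of cell division respond to a glucocorticoid and to this microRNA, and whether the response differs between the sensitive and the resistant line.

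Kinesins are motor proteins that use ATP to walk along microtubules or to take them apart. In mitosis they push the spindle poles apart, bring chromosomes to the spindle equator, correct wrong attachments at kinetochores, and build the central spindle on which the cell is cleaved. Their transcripts are known to accumulate in G2 and mitosis and to be low in resting cells. Many genes of this class carry a cell cycle genes homology region (CHR) in the core promoter, the site at which the DREAM complex holds them off in quiescence and at which the B-MYB complex with FOXM1 turns them on, and a CCAAT box, the site of NF-Y, lies next to it in many of them.

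The promoters are shown first, since the choice of the genes did not use them. RefSeq windows of 250 bases before to 50 bases after the start site were read for all 10 genes (GRCh38.p14), and both strands were searched for CCAAT and for the CHR-type hexamers TTTGAA and TTTAAA, with no other form of the element. TTTGAA or TTTAAA was found in 9 of the 10 windows, the exception being KIF22, against 24% of 34796 promoters of the same length. CCAAT was found in 8 of 10 (not in KIF2C and KIF15) against 34.6%, and both kinds together in 7 of 10 against 9.29%. RefSeq has 1 promoter entry for each gene but KIF22, whose further entry starts 217 bases downstream and held neither motif. A match describes these letters only, and no binding was measured. Given here are 130 bases, ending 20 bases into the transcript, for 6 genes in the direction of transcription. In 5 of them box and element lie at several spacings. KIF22 held neither TTTGAA nor TTTAAA, which does not exclude another form of the element. Matched letters are in capitals (a match to the other strand reads ATTGG or TTCAAA).
KIF11, chr10:92593020-92593149, plus strand: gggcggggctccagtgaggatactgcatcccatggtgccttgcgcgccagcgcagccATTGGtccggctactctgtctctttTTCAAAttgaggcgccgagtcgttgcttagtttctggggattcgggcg
KIF20A, chr5:138179002-138179131, plus strand: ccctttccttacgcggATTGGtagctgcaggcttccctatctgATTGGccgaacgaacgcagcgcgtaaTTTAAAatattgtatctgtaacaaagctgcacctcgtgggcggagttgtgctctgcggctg
KIF4A, chrX:70289994-70290123, plus strand: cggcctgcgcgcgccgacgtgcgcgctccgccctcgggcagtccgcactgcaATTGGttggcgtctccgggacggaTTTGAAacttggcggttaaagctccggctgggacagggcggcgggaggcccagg
KIF23, chr15:69414239-69414368, plus strand: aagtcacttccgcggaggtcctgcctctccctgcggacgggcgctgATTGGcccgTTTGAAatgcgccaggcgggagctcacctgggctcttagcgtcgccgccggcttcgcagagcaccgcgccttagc
KIF18A, chr11:28108137-28108266, minus strand: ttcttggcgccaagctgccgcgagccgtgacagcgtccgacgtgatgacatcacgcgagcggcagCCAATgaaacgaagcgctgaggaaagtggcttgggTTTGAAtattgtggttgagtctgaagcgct
KIF22, chr16:29790641-29790770, plus strand: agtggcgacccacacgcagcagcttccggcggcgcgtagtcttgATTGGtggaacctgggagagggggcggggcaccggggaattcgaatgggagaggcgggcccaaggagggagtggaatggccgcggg

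With the first transcribed base counted as 1 and the base before it as -1, the box of KIF11 began at -53 and its element at -28, and in KIF4A the positions were -58 and -34. KIF20A had boxes at -94 and -67 before an element at -41. In KIF23 the box at -64 and the element at -55 lay closest to each other, and a further element lay at -211. The element of KIF18A began at -10, and that of KIFC1, whose RefSeq window is set on a start inside the annotated gene, began at 5, past the start site. None of the matches in a window overlapped. The sequences of the array probes, of the mimetic and of the proteins were not used here.

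**Figure D1:**
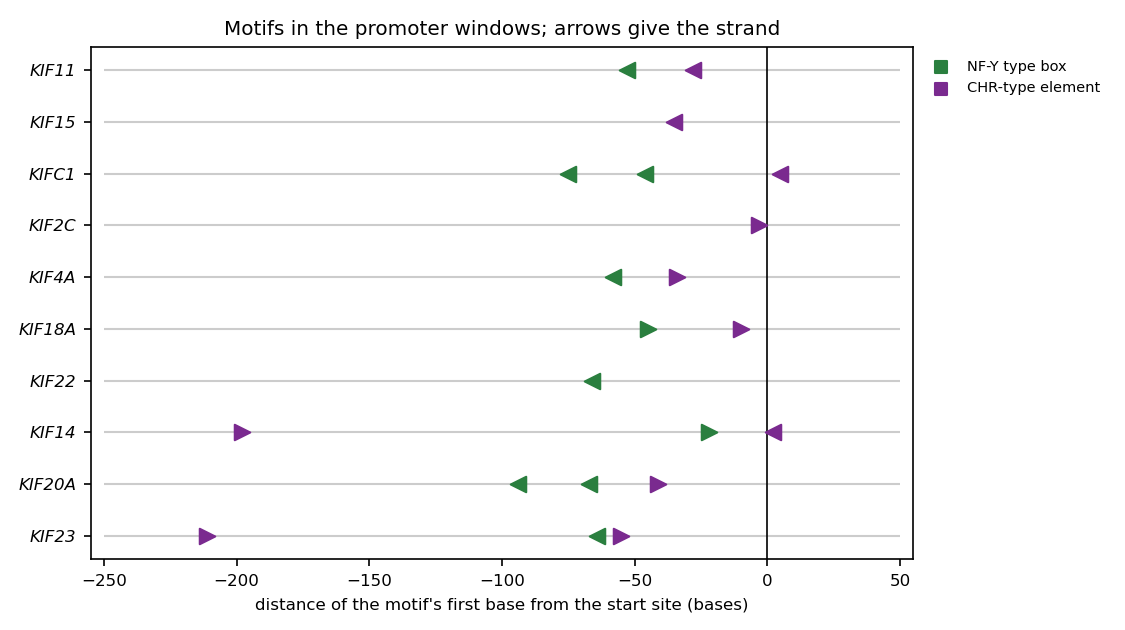
Positions of CCAAT boxes (green, NF-Y type) and CHR-type elements (purple) in the promoter windows of the 10 genes, as the distance of the first base from the start site in bases (x axis), with arrows for the strand (an element that reads alike on both strands points right). The boxes lie between -94 and -22, 9 of the 11 elements lie between -55 and 5, and KIF22 has a box and no TTTGAA or TTTAAA.

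All 10 genes were measured above background in all 24 arrays (detection p-value under 0.05), each by its probe with the highest mean signal. KIF11, KIF18A and KIF23 had a further probe. The second KIF11 probe was detected in 24 arrays, that of KIF23 in 19 and that of KIF18A in none, so KIF18A rests on 1 probe of low signal. Values are log2 intensities after quantile normalization of the 24 arrays, on which the median of all probes was 7.07 in each array. Levels of different genes cannot be compared, since probes differ in their response. KIF4A has a near-identical intronless copy, KIF4B, and the specificity of the KIF4A probe for either was not checked.

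Across the groups 17059 to 21328 probes were detected per array. All 7 plasma cell markers (such as SDC1 and XBP1) were detected in all 24 arrays, and of 19 markers of T, myeloid, stromal, erythroid and epithelial cells only HBB was. The NR3C1 probe of highest signal, for the glucocorticoid receptor, was detected in all arrays of MM1S cells and in none of MM1R cells, and its other 2 probes were near background in both. MM1S mimetic replicate 3 stood apart from its group. The SD of the log2 difference over detected probes was 0.113 between mimetic replicates 1 and 2, the smallest of the 24 replicate pairs within groups. It was 0.339 and 0.341 from these to replicate 3, which lay 0.160 to 0.215 from the mock arrays. The mimetic changes in MM1S cells are therefore given with and without this array.

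**Figure D2:**
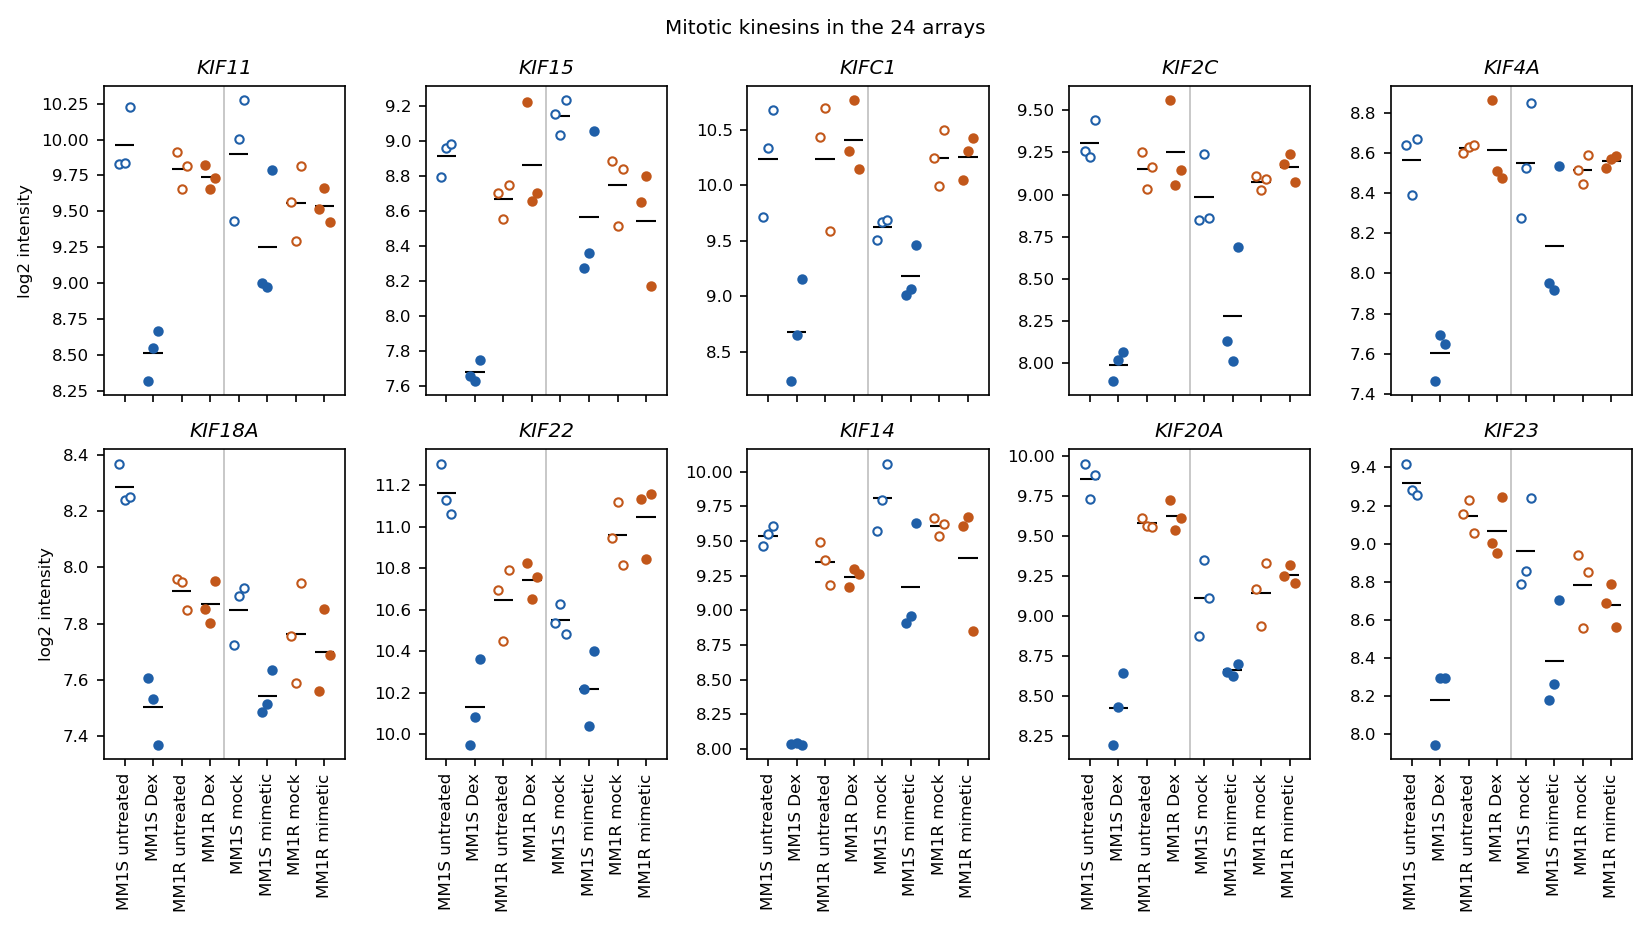
Log2 intensity (y axis, not starting at 0 and scaled for each gene) of each kinesin in each of the 24 arrays, for MM1S (blue) and MM1R (orange), with treated arrays filled, control arrays open and bars at group means. The Dex-treated MM1S arrays lie under every untreated MM1S array in all 10 panels, and the filled and open orange points overlap.

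Dex lowered all 10 mitotic kinesins in MM1S cells. The median log2 change was -1.27 (range -1.56 to -0.78) against 0.01 over all genes tested, and 8 of the 10 genes fell more than 2-fold, all but KIF18A and KIF4A. In no gene did a Dex array reach the level of an untreated array. Of all 11530 genes tested, 13.5% fell at a limma adjusted p under 0.05, 1.81% did so by more than 2-fold, and 20.9% were lower without overlap between arrays. The arrays measured whole cultures, so a smaller share of cells in G2 and mitosis and less transcript per cell cannot be told apart. With 3 arrays against 3 an exact permutation test cannot go below 0.10, and the adjusted p values given are from limma over all probes tested.

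Among the motors that set up the spindle, KIF11 (Eg5, chr10:92593130-92655395), a plus-end motor that slides antiparallel microtubules apart and the target of the myeloma trial compound filanesib, was at 9.83, 9.84 and 10.22 in untreated and at 8.32, 8.55 and 8.67 in Dex-treated MM1S cells. All Dex arrays lay over 1 log2 unit under the lowest untreated array, and the change was -1.45 ± 0.12 (log2 change ± SE, 2.73-fold lower, limma adjusted p = 3.26e-08). KIF15, which helps KIF11 to keep the poles apart (chr3:44761794-44868687), was at 8.80, 8.96 and 8.98 untreated and at 7.66, 7.63 and 7.75 with Dex. Its arrays were tight within each group, and it fell by 1.24 ± 0.13 on the log2 scale (2.36-fold, limma adjusted p = 3.25e-07). KIFC1 (HSET), a minus-end motor that works against KIF11 and gathers extra centrosomes into poles (chr6:33391461-33409896), was at 9.71, 10.33 and 10.67 untreated and at 8.23, 8.65 and 9.15 with Dex. It had the largest change of the 10, -1.56 ± 0.26 (2.95-fold lower), but also the widest spread within groups (SD 0.49 untreated and 0.46 with Dex). The SE is shared by the groups of the fit, among them untreated MM1R cells (SD 0.58). Its limma adjusted p was the weakest of the 10, 0.000143.

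Among the motors that move and align chromosomes, KIF2C (MCAK, chr1:44739837-44767767), a depolymerase that takes apart microtubules wrongly attached to kinetochores, was at 9.26, 9.22 and 9.44 untreated and at 7.89, 8.02 and 8.07 with Dex. The groups lay over 1 log2 unit apart, with a change of -1.31 ± 0.12 (2.48-fold lower, limma adjusted p = 1.07e-07). KIF22 (Kid, chr16:29790751-29805385), a chromokinesin that pushes chromosome arms away from the poles, was at 11.31, 11.13 and 11.06 untreated and at 9.95, 10.08 and 10.36 with Dex. This gene, the only one of the 10 with no TTTGAA or TTTAAA match, fell by 1.03 ± 0.12 on the log2 scale (2.05-fold, limma adjusted p = 1.64e-06). KIF4A, a chromokinesin that also works with PRC1 on the central spindle (chrX:70290104-70420886), was at 8.64, 8.39 and 8.67 untreated and at 7.46, 7.69 and 7.65 with Dex. Its change of -0.97 ± 0.11 (1.96-fold lower, limma adjusted p = 1.95e-06) lay just under 2-fold. KIF18A, which damps the swings of chromosomes at the equator (chr11:28020619-28108156), was at 8.37, 8.24 and 8.25 untreated and at 7.61, 7.53 and 7.37 with Dex. Its signal was low in every array, and it had the smallest change, -0.78 ± 0.09 (1.72-fold lower, limma adjusted p = 1.76e-06).

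Among the motors of cytokinesis, KIF14 (chr1:200551497-200620751), which binds PRC1 and citron kinase at the midbody, was at 9.46, 9.55 and 9.61 untreated and at 8.04, 8.04 and 8.03 with Dex. Its Dex arrays had an SD of 0.0055, and the change of -1.50 ± 0.10 (2.83-fold lower) had the smallest limma adjusted p of the 10, 1.76e-09. KIF20A (MKLP2, chr5:138179112-138187723), which carries the chromosomal passenger complex to the central spindle, was at 9.95, 9.74 and 9.88 untreated and at 8.20, 8.43 and 8.64 with Dex. The change was -1.43 ± 0.11 (2.70-fold lower, limma adjusted p = 1.23e-08). KIF23 (MKLP1, chr15:69414349-69448427), the motor subunit of centralspindlin, was at 9.42, 9.28 and 9.26 untreated and at 7.95, 8.30 and 8.29 with Dex, a fall by 1.14 ± 0.11 on the log2 scale (2.20-fold, limma adjusted p = 2.74e-07).

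The further probes gave the same direction. The second KIF11 probe changed by -1.28 (limma adjusted p = 8.47e-08) and the dim second KIF23 probe by -0.41 (limma adjusted p = 0.000818), the latter much less than the -1.14 of the brighter probe. The second probe of KIF23 was detected in 1 of the 3 Dex arrays.

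In MM1R cells none of the 10 genes passed the test with Dex. The changes ran from -0.10 (KIF14) to 0.19 (KIF15), 5 up and 5 down, all with a limma adjusted p of at least 0.997, and none had an unadjusted p under 0.05, which 432 of 11530 genes (3.75%) had. Of all genes 0% were called in either direction in this comparison. The widest interval was that of KIFC1, 0.17 with a 95% confidence interval of -0.38 to 0.71, whose untreated MM1R arrays were at 10.43, 10.70 and 9.58. For KIF20A, at 9.62, 9.56 and 9.56 untreated and at 9.73, 9.54 and 9.62 with Dex, the interval of -0.19 to 0.28 held no fall of the size seen in MM1S cells.

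The difference between the lines was itself tested. All 10 genes changed more negatively in MM1S than in MM1R cells (called in 8.8% of all genes), from -0.74 ± 0.13 for KIF18A to -1.73 ± 0.37 for KIFC1, with limma adjusted p values between 1.41e-06 (KIF14) and 0.00273 (KIFC1). KIF20A (-1.48 ± 0.16) and KIF15 (-1.43 ± 0.18) followed KIFC1 in size. MM1S with Dex had the lowest mean of the 8 groups for 10 of the 10 genes, a count for which no share of all genes was taken.

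**Figure D3:**
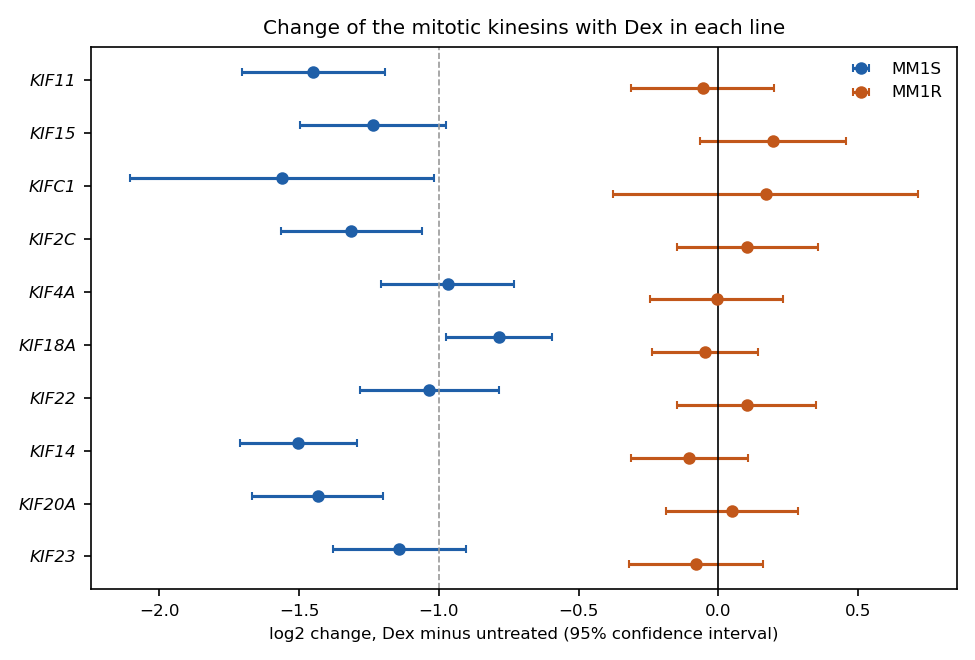
Log2 change with Dex (x axis, Dex minus untreated) of each kinesin in MM1S (blue) and MM1R (orange), points for the fit over 12 arrays and bars for its 95% confidence interval, with a dashed line at a 2-fold fall. The MM1S points run from -1.56 to -0.78 and the MM1R points from -0.10 to 0.19, and no intervals of the same gene meet.

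With the mir-150-5p mimetic none of the 10 genes passed the test in MM1S cells when all 3 arrays were used (limma adjusted p 0.0544 to 0.224, called lower in 0.421% of all 12361 genes). All 10 changes were negative, with a median of -0.52 (range -0.71 to -0.31) against 0.01 over all genes, each had an unadjusted p under 0.05 (21.3% of all genes did), and 6 of the 10 were lower without overlap between arrays (9.28% of all genes). Without replicate 3, 9 of the 10 were called lower, all but KIF22 (-0.42, limma adjusted p = 0.0625). The median was -0.68 (range -0.91 to -0.35), where 9.77% of all genes tested were called lower. This second count rests on 2 mimetic arrays, the most alike pair of the data. Replicate 3 was singled out by its nearness to the mock arrays in these same values, so leaving it out enlarges the falls. The p values without it, here and below, are therefore no independent support.

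The largest changes without replicate 3 were those of KIF11 and KIF2C. KIF11 was at 9.43, 10.00 and 10.27 in mock arrays and at 9.0, 8.98 and 9.79 in mimetic arrays of MM1S cells, with only replicate 3 inside the mock range. Its change was -0.65 ± 0.23 over all arrays (limma adjusted p = 0.138) and -0.91 ± 0.20 without replicate 3 (limma adjusted p = 0.00506). KIF2C was at 8.85, 9.24 and 8.86 in mock and at 8.13, 8.01 and 8.69 in mimetic arrays, with no overlap even for replicate 3. It changed by -0.71 ± 0.16 over all arrays, the smallest limma adjusted p of the 10 at 0.0544, and by -0.91 ± 0.13 without replicate 3 (limma adjusted p = 0.000158).

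Of the other spindle assembly motors, KIF15 was at 9.16, 9.03 and 9.24 in mock and at 8.28, 8.36 and 9.06 in mimetic arrays, and KIFC1 was at 9.51, 9.67 and 9.68 and at 9.01, 9.06 and 9.46. Over all arrays neither passed the test, with -0.58 ± 0.20 for KIF15 (limma adjusted p = 0.124) and -0.44 ± 0.16 for KIFC1 (limma adjusted p = 0.157). Without replicate 3 they fell by 0.82 ± 0.16 and by 0.59 ± 0.16 on the log2 scale (limma adjusted p = 0.00235 and 0.0191). KIF14, of the cytokinesis motors, was at 9.57, 9.80 and 10.06 in mock and at 8.91, 8.96 and 9.63 in mimetic arrays, with a change of -0.64 ± 0.22 over all arrays (limma adjusted p = 0.127) and a fall by 0.88 ± 0.20 without replicate 3 (limma adjusted p = 0.00696). KIF23 was at 8.79, 8.86 and 9.24 and at 8.18, 8.26 and 8.71, with -0.58 ± 0.16 over all arrays (limma adjusted p = 0.0743) and a fall by 0.74 ± 0.15 without replicate 3 (limma adjusted p = 0.00249). KIF20A was the exception in that all 3 mimetic arrays were alike, at 8.65, 8.63 and 8.70 against 8.87, 9.35 and 9.11 in mock arrays. Its change was -0.45 ± 0.14 over all arrays (limma adjusted p = 0.0927) and -0.47 ± 0.15 without replicate 3 (limma adjusted p = 0.0389). Replicate 3 of KIF20A lay 86.6% as far below the mock mean as replicates 1 and 2, whereas for KIF4A, at 8.28, 8.52 and 8.85 in mock and at 7.95, 7.92 and 8.54 in mimetic arrays, it lay 2.13% as far. KIF4A changed by -0.42 ± 0.16 over all arrays (limma adjusted p = 0.172) and by -0.62 ± 0.14 without replicate 3 (limma adjusted p = 0.00488).

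KIF18A, at 7.72, 7.90 and 7.93 in mock and at 7.48, 7.51 and 7.63 in mimetic arrays, and KIF22, at 10.54, 10.63 and 10.48 and at 10.22, 10.04 and 10.40, had the smallest changes. KIF18A was at -0.31 ± 0.10 over all arrays (limma adjusted p = 0.124) and -0.35 ± 0.11 without replicate 3 (limma adjusted p = 0.0433), and KIF22 at -0.33 ± 0.14 (limma adjusted p = 0.224) and -0.42 ± 0.14 (limma adjusted p = 0.0625). Every mimetic array of both genes lay below every mock array. Over the 10 genes replicates 1 and 2 were below all mock arrays in 10 of 10 (24.4% of all genes). In 6 of 10 replicate 3 was below them too, so that no arrays overlapped (9.28% of all genes). The second KIF11 probe was called with all arrays (-0.98, limma adjusted p = 0.0426) and changed by -1.16 without replicate 3 (limma adjusted p = 8.54e-05).

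**Figure D4:**
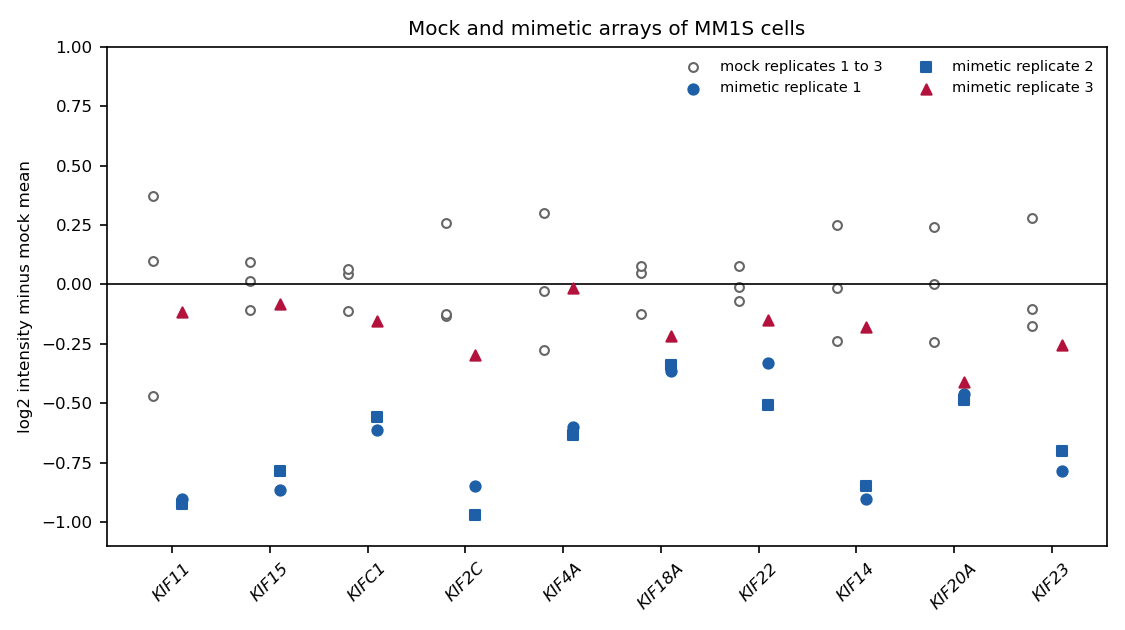
Log2 intensity minus the mean of the mock arrays (y axis) in MM1S cells for each kinesin, with mock arrays as open circles and mimetic replicates 1, 2 and 3 as a filled circle, square and triangle. Replicates 1 and 2 lie together below the mock arrays in all 10 genes, and replicate 3 lies between -0.41 (KIF20A) and -0.01 (KIF4A).

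In MM1R cells none of the 10 genes passed the test with the mimetic (0% of all genes were called in either direction), with changes of -0.23 (KIF14) to 0.11 (KIF20A), 5 up and 5 down. KIF14 was at 9.61, 9.67 and 8.85 in mimetic arrays against 9.66, 9.54 and 9.63 in mock arrays, and only replicate 3 lay apart, with a deviation of -0.76 from the mock mean. The difference of the mimetic effect between the lines was called for none of the 10 genes with all arrays (-0.79 to -0.24, limma adjusted p 0.301 to 0.586, called in 0% of all genes), and 3 of the 10 had an unadjusted p under 0.05, as had 12.9% of all genes. Without replicate 3 it was called for KIF2C (-1.0 ± 0.18, limma adjusted p = 0.00197, against -0.79 ± 0.23 with all arrays) and KIF4A (-0.66 ± 0.18, limma adjusted p = 0.035, against -0.46 ± 0.23), where 5.39% of all genes were called lower.

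Side by side in MM1S cells, the Dex change was the larger fall for all 10 genes. The difference of the changes, Dex minus mimetic, was called for KIF20A (-0.98 ± 0.18, limma adjusted p = 0.00281) and KIF22 (-0.71 ± 0.19, limma adjusted p = 0.0359), and 2.4% of all 13245 genes were called lower. Without mimetic replicate 3 only KIF20A was called (-0.96 ± 0.19, limma adjusted p = 0.00188, 3.41% of all genes), and KIF22 was at -0.62 ± 0.19 (limma adjusted p = 0.0508). The KIF22 call was also lost without any 1 of 8 further MM1S arrays, untreated replicates 1 to 3, Dex replicates 1 and 2, mimetic replicate 1 and mock replicates 2 and 3. For the other 8 genes the limma adjusted p ran from 0.0505 to 0.147 and the 95% confidence intervals, which are not adjusted for the number of genes, lay between -1.83 and -0.14. Agent, delivery and experiment cannot be told apart in this comparison.

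Without a treatment 8 of the 10 kinesins did not pass the test between the lines. Between untreated arrays KIF18A was lower in MM1R (-0.37 ± 0.09, limma adjusted p = 0.0146) and so was KIF22 (-0.52 ± 0.12, limma adjusted p = 0.00918), against 4.27% of all genes called lower and 5.24% higher. Without MM1S untreated replicate 1 neither was called, and without MM1R untreated replicate 2 only KIF18A was. Between mock arrays KIF22 (0.41 ± 0.14, limma adjusted p = 0.039) and KIFC1 (0.63 ± 0.16, limma adjusted p = 0.00952) were higher in MM1R cells, as were 15.3% of all genes. The KIF22 call was lost when any 1 of 6 arrays was left out (MM1S mock replicates 1 to 3, MM1R mock replicates 1 and 2, and MM1S mimetic replicate 1), and both calls were lost with each array centred on its median in place of quantile normalization.

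KIF22 thus stood in the opposite order in the control arrays of the experiments. It was at 11.31, 11.13 and 11.06 in untreated and at 10.54, 10.63 and 10.48 in mock-transfected MM1S cells, but at 10.70, 10.45 and 10.79 in untreated and at 10.94, 11.12 and 10.82 in mock-transfected MM1R cells. Its change from untreated to mock was -0.62 ± 0.13 in MM1S (limma adjusted p = 0.00109) and 0.31 ± 0.13 in MM1R cells (limma adjusted p = 0.0958), and the groups overlapped in neither line, as in 21.8% of all genes lower in MM1S and 16.8% higher in MM1R cells. The difference between the lines, -0.93 ± 0.19, had a limma adjusted p of 0.00123 and was the only call among the 10 genes, where 8.83% of all genes were called lower. With median centring it was -0.64 ± 0.20 (limma adjusted p = 0.0233), made up of -0.14 in MM1S and 0.50 in MM1R cells. KIF20A was lower in mock than in untreated arrays in both lines (-0.74 ± 0.13 in MM1S, limma adjusted p = 0.000115, and -0.43 ± 0.13 in MM1R, limma adjusted p = 0.0159), and KIF18A in MM1S (-0.44 ± 0.10, limma adjusted p = 0.00148), against 13.8% and 9.04% of all genes called lower in the lines. Electroporation and the experiment as a whole cannot be told apart here. The calls of KIF18A, KIF20A and KIF22 in MM1S cells were lost with median centring, which moved the median change of all genes from 0.01 to 0.21 and turned that of KIF4A from -0.02 to 0.42. The KIF20A call in MM1R cells was lost with median centring, and also without MM1R untreated replicate 1 (-0.42) or MM1R mock replicate 2 (-0.33).

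Further kinesins were compared from lists drawn up by function. Of 8 other mitotic kinesins 7 were on the array and 5 were tested, and with Dex in MM1S cells 4 fell and 1 rose, at a median of -0.49, where 13.5% of all genes fell and 14.3% rose. KIF20B, a cytokinesis motor, fell the most (-1.48 ± 0.13, limma adjusted p = 4.85e-08), followed by CENPE, the kinetochore motor (-1.03 ± 0.10, limma adjusted p = 2.2e-07), and KIF24, a kinesin of centrioles (-0.49 ± 0.09, limma adjusted p = 0.000276). KIF2A, a spindle pole depolymerase named after its value was seen, changed by -0.30 (limma adjusted p = 0.0386), and KIF3B, chiefly a motor of cilia, rose by 0.28 ± 0.09 (limma adjusted p = 0.036). Of 30 other kinesins 13 were tested, 2 rose and 2 fell, with a median of 0.06. KIFC2 (0.86 ± 0.15, limma adjusted p = 0.000193) and KIF1B, a carrier of organelles (0.51 ± 0.12, limma adjusted p = 0.00476), rose, and KIF21A (-0.44 ± 0.10, limma adjusted p = 0.0028) and KIF5B, the conventional kinesin heavy chain (-0.33 ± 0.12, limma adjusted p = 0.0468), fell.

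Of 23 genes of the minus-end motor dynein and its activator dynactin, 19 were tested, of which Dex raised 3 and lowered 1 in MM1S cells (14.3% and 13.5% of all genes), with a median of 0.05, so that the share raised was near that of all genes. DYNLT1, a light chain (0.49 ± 0.11), DYNC1H1, the heavy chain (0.45 ± 0.13), and PAFAH1B1, the LIS1 regulator (0.30 ± 0.10), were the genes that rose, with limma adjusted p values of 0.00271, 0.015 and 0.0327. DYNC1I1, an intermediate chain, fell by 0.37 ± 0.09 on the log2 scale (limma adjusted p = 0.00483).

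Of 21 partners of the mitotic kinesins, the kinases, adaptors and spindle proteins that load or anchor them, 20 were tested and 18 fell, against 13.5% of all genes, with a median of -1.31. HMMR, a spindle pole protein (-1.84 ± 0.11, limma adjusted p = 4.7e-10), BIRC5, the survivin subunit of the passenger complex that KIF20A carries (-1.70 ± 0.11, limma adjusted p = 1.76e-09), TPX2, which anchors KIF11 and KIF15 on the spindle (-1.53 ± 0.11, limma adjusted p = 4.56e-09), and PRC1, the bundling protein that holds KIF4A and KIF14 (-1.41 ± 0.11, limma adjusted p = 9.93e-09), led them. MAPRE1 (-0.23, limma adjusted p = 0.118) and NUMA1 (-0.02, limma adjusted p = 0.938) did not pass. Of 19 tubulin genes 13 were tested, 9 fell and 1 rose (13.5% and 14.3% of all genes), at a median of -0.62. TUBA1A (-0.83), TUBB4B (-0.91), TUBB (-0.84) and TUBA1C (-0.92), subunits of the microtubule itself, fell with limma adjusted p values between 3.02e-07 and 6.73e-06, and TUBG2, a gamma tubulin, rose by 0.43 ± 0.11 (limma adjusted p = 0.00495). Tubulin genes are close in sequence, and their probes may share signal.

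Of 22 regulators of these promoters (subunits of DREAM and of the B-MYB complex, E2F factors, FOXM1 and their controllers) 21 were tested, of which Dex lowered 10 and raised 3 in MM1S cells (13.5% and 14.3% of all genes), at a median of -0.36, so that the share raised was that of all genes. E2F2 (-1.27 ± 0.14, limma adjusted p = 6.15e-07), RBBP4, a histone binding subunit of DREAM (-0.95 ± 0.11, limma adjusted p = 1.67e-06), LIN9, of the MuvB core (-0.82 ± 0.10, limma adjusted p = 2.62e-06), and E2F7, a repressor of the family (-1.16 ± 0.15, limma adjusted p = 4.79e-06), fell. RBL2, the p130 pocket protein of DREAM, rose by 0.45 ± 0.11 (limma adjusted p = 0.00388), and DYRK1A, the kinase that drives DREAM assembly, by 0.43 ± 0.11 (limma adjusted p = 0.0079). FOXM1 fell (-0.80, limma adjusted p = 4.86e-06) and MYBL2 (B-MYB) did not pass (-0.25, limma adjusted p = 0.0739), both named after their values were seen. A part of these regulators in the kinesin result was not tested. No gene of these lists was called with Dex in MM1R cells, where 0% of all genes were. For some named genes called in MM1S cells the difference between the lines was not called (limma adjusted p 0.0551 to 0.251). These were KIF24, KIF3B, KIF1B, KIF5B, DYNLT1, DYNC1H1, PAFAH1B1 and DYRK1A.

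With the mimetic in MM1S cells, over all 3 arrays 2 partners fell, ECT2 (-0.80 ± 0.17, limma adjusted p = 0.0465, and -0.99 ± 0.15 without replicate 3) and CCNB1 (-0.62 ± 0.13, limma adjusted p = 0.0489, and -0.64 ± 0.15), the former the guanine nucleotide exchange factor that centralspindlin recruits and the latter cyclin B1, and the list had a median of -0.57, where 0.421% of all genes were called lower. Without replicate 3, when 9.77% of all genes were called lower, 16 of 20 partners fell at a median of -0.66. PRC1 fell by 0.87 ± 0.13 on the log2 scale and HMMR by 1.19 ± 0.21, against -0.58 ± 0.19 (limma adjusted p = 0.117) and -0.94 ± 0.23 (limma adjusted p = 0.0625) over all arrays. Of 21 regulators 8 fell at a median of -0.15, and none was called over all arrays. CDKN1A, named after its value was seen, fell the most of them (-1.44 ± 0.13 without replicate 3, limma adjusted p = 1.76e-06). Of 15 tubulins 2 fell without replicate 3 at a median of -0.09, a share near that of all genes. TUBE1, an epsilon tubulin of centrioles, was the tubulin that fell with all arrays too (-0.73 ± 0.15, limma adjusted p = 0.0455, and -0.94 ± 0.12 without replicate 3). Of the other kinesins KIF21B changed the most without replicate 3 (-1.75 ± 0.18, limma adjusted p = 5.92e-06, against -1.21 ± 0.32 and 0.0703 over all arrays), a gene named after its value was seen.

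**Figure D5:**
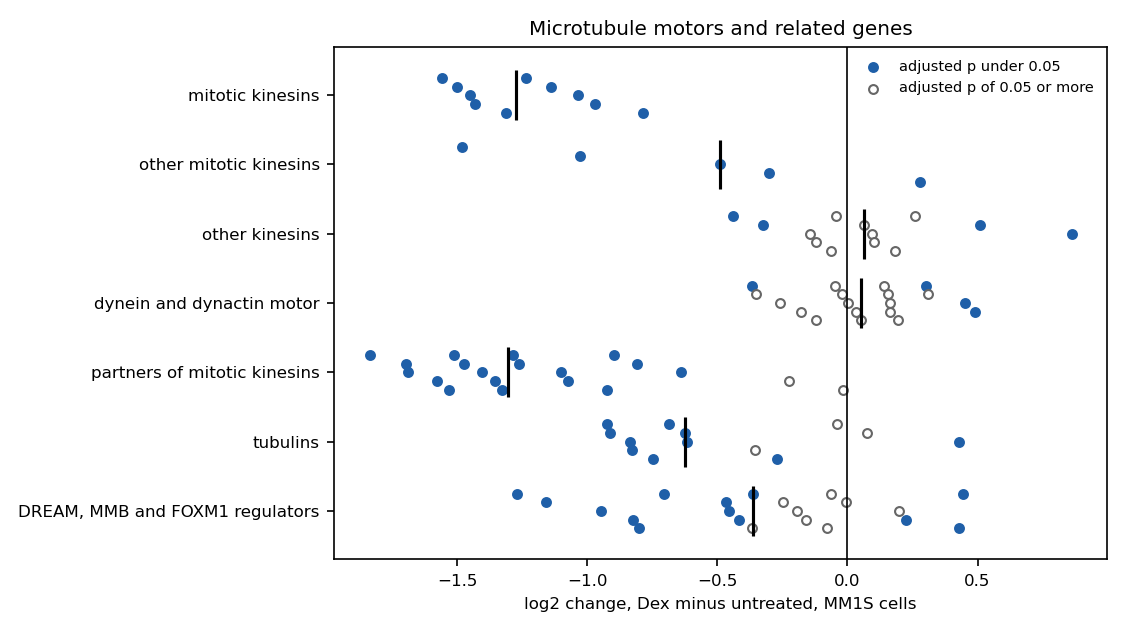
Log2 change with Dex in MM1S cells (x axis) of the tested genes of 7 lists (rows), filled where the limma adjusted p was under 0.05, with a black bar at the median of each list. The mitotic kinesins (median -1.27) and their partners (-1.31) lie to the left of the tubulins (-0.62), and the other kinesins (0.06) and dynein genes (0.05) lie around 0.

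Among the markers, HBB, a globin gene that these plasma cells should lack, also fell with Dex and with the mimetic in MM1S cells. Its fall was larger with the mimetic than with Dex, the reverse of the 10 mitotic kinesins. KIF21B had the same order as HBB (-0.12 with Dex and -1.21 with the mimetic over all arrays). The mock arrays of HBB were not lower than untreated as a group, nor were those of KIF14 and KIF15. HBB was at 9.29, 9.37 and 9.11 untreated and at 8.97, 8.90 and 8.65 with Dex, and at 9.30, 9.85 and 9.69 in mock and 8.26, 8.23 and 9.01 in mimetic arrays, with replicate 3 again nearest to the mock arrays. It fell with Dex (-0.42 ± 0.12, limma adjusted p = 0.0163) and with the mimetic (-1.12 ± 0.19, limma adjusted p = 0.0426, and -1.37 ± 0.16 without replicate 3). The summed intensity of the 3 erythroid markers on the array ran from 812 to 923 in untreated, 672 to 752 in Dex, 894 to 1174 in mock and 544 to 760 in mimetic arrays of MM1S cells, but HBA1, the other globin, was detected in no array, and ALAS2 in 1. The sums in MM1R cells ran from 1042 to 1518. HBB was not called with Dex or the mimetic in MM1R cells, and between untreated arrays it was higher in MM1R (0.50 ± 0.12, limma adjusted p = 0.0141). EPCAM, an epithelial adhesion protein detected in 16 of 24 arrays at 7.05 to 7.48, also fell with Dex in MM1S cells (-0.26 ± 0.08, limma adjusted p = 0.0141), and with the mimetic it was at 0.10 (limma adjusted p = 0.374). Of the 7 plasma cell markers CD38 (-0.88 ± 0.17, limma adjusted p = 0.000621) and IRF4 (-0.42 ± 0.13, limma adjusted p = 0.0282) fell with Dex in MM1S cells. The median was -0.20, where 13.5% of all genes fell, and SDC1 (0.17) and PRDM1 (0.09) went up without a call. With the mimetic the plasma cell markers had a median of -0.56 over all arrays, with only IRF4 called (-1.67 ± 0.34, limma adjusted p = 0.0455). Of all genes 0.421% were called lower there. Without replicate 3 the median was -0.72, beside -0.68 for the kinesins, and 9.77% of all genes were called lower. Of the 7 markers 5 fell (IRF4 -2.22 ± 0.21, SLAMF7 -1.25 ± 0.15, CD38 -1.23 ± 0.12, TNFRSF17 -0.72 ± 0.13 and PRDM1 -0.56 ± 0.12). XBP1 (-0.17) and SDC1 (0.28) were not called. The part of these genes in the kinesin result was not tested.

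Over the 24 arrays the 10 kinesins followed each other. Pearson r over the 45 pairs ran from 0.486 to 0.931 (median 0.749), as a description over arrays that all genes share, and after subtraction of group means it ran from -0.428 to 0.841 (median 0.361, positive in 42 of 45 pairs). KIF11 followed the others best (median r 0.859), and KIF18A and KIF22 least (0.624 for both). The 5 genes whose pattern over the 24 arrays was most like the mean of the 10, out of 13245 genes, were PBK (r = 0.976), CCNB2 (0.970), MELK (0.967), CKAP2L (0.967) and KIF20B (0.965). PBK and MELK are mitotic kinases, CCNB2 is cyclin B2, and CKAP2L and KIF20B bind microtubules. The 10 genes themselves ranged from 0.778 (KIF22) to 0.954 (KIF2C) against this mean, of which each is a part.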

How the data were processed

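RNA of 24 cultures in 8 groups of 3 was hybridised to Illumina HumanHT-12 arrays. Per the methods, the authors read bead intensities with beadarray, quantile normalized them and used limma 3.14.1. They deposited log2 intensities that were not normalized between arrays, each with the p-value of its detection, and a table of their quantile-normalized log2 values. No background step is given in the sources used here. The 24 arrays were quantile normalized again from the former (limma 3.58.1, R 4.3.3, Python 3.11.15), and the largest difference from the authors' deposited log2 values over the kinesin probes was 0.00131. Of 47224 probes 4 with missing values were left out, 30107 had 1 gene symbol in the platform annotation, 8 had several and 17109 had none. A gene was taken by its probe with the highest mean over the 24 arrays.

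Probes were kept where 3 or more arrays of the fit had a detection p-value below 0.05, and were tested with limma's moderated test with an intensity trend, two-sided, with Benjamini-Hochberg adjustment over all probes tested, and called at an adjusted p under 0.05. The 12 arrays of each experiment were fitted together, and all 24 arrays for comparisons across experiments. These p values rest on a spread shared by all groups of a fit, both lines included, and moderated across probes. With 3 arrays a group the number of arrays limits the precision. The fit was also run on simulated arrays with known changes. These were drawn independently with the same spread in every group and held no array such as MM1S mimetic replicate 3. That run is therefore no support for the calls given here. The alternatives were the authors' normalization, median centring, quantile normalization of each experiment apart, normexp background correction with an offset of 16, other filters, array weights, other sample sets, the replicate number as a block, stricter thresholds, second probes and leaving out each array. The test of the mock against untreated change between lines was added after the KIF22 values were seen. All 10 kinesins were named, with the 4 genes of smallest adjusted p with Dex in MM1S cells of each further list, up to 2 called in the other direction, and the 5 genes most like the mean of the 10. The kinesins and lists were chosen with earlier results of these data known. Promoter sequences are from RefSeq (GRCh38.p14), where all 10 genes matched by symbol.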

Additional observations from a re-analysis of the deposited data

Results flagged for a closer look

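The Dex effect differed between MM1S and MM1R cells for all 10 kinesins by a limma test of the difference itself. It was more negative in MM1S cells by a log2 difference of -1.73 for KIFC1, -1.48 for KIF20A, -1.43 for KIF15, -1.42 for KIF2C, -1.40 for KIF14, -1.39 for KIF11, -1.13 for KIF22, -1.06 for KIF23, -0.96 for KIF4A and -0.74 for KIF18A. KIF22 also changed differently from untreated to mock arrays in the lines, by -0.93 on the log2 scale. Of all genes 8.83% were called lower in this contrast, which was added after the KIF22 values were seen. All mock arrays of KIF22 lay below the untreated arrays in MM1S cells (-0.62, as in 21.8% of all genes) and above them in MM1R cells (16.8%). Leaving out any 1 array kept the difference of KIF22 called, with the limma adjusted p between 0.000438 and 0.00666. With median centring it was -0.64 (limma adjusted p = 0.0233). Since the contrast was picked from these same values, this stability is no independent support.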

How the results depend on the processing

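With Dex 10 kinesins were called in MM1S cells, 0 in MM1R cells and 10 in the difference, also when any 1 array was left out, and so were the 0 of the mimetic in MM1R cells. Of 262 single values of Dex in MM1S cells under the alternatives, 258 kept direction and call, and 4 missed a fold threshold. The mimetic calls in MM1S cells depended on the setting. From 0 kinesins called, the count became 1 without a filter on dim probes, 6 with all 24 arrays in 1 fit, 10 with array weights and 1 with second probes. Leaving out 1 array gave 0 to 9, with 9 without mimetic replicate 3 and 1 without mock replicate 1. The difference of the mimetic effect between lines went from 0 to 7 with array weights and to 0 to 2 with 1 array left out.

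The contrasts of untreated and mock arrays moved more. Between untreated lines 2 calls became 0 under either threshold that adds a 2-fold change, and 0 to 2 with 1 array left out. Between mock lines 2 became 1 with median centring, without the filter and with all 24 arrays. With median centring neither KIF22 nor KIFC1 was called, so the 1 call there was of another kinesin. The count was 0 under either fold threshold, and 1 to 3 with 1 array left out. For mock against untreated in MM1S cells 3 became 5 with only the groups compared and with array weights, 0 under either fold threshold, and 3 to 6 with 1 array left out, with 6 without mimetic replicate 3. With median centring KIF4A reversed to 0.42. The calls of KIF18A, KIF20A and KIF22 were lost there, so any calls under that setting were of kinesins other than these. In MM1R cells 1 became 2 with each experiment normalized apart or only the groups compared, and 3 with array weights. It became 0 under either fold threshold and 0 to 2 with 1 array left out. The KIF20A call in MM1R cells was lost with median centring. For Dex minus mimetic 2 became 0 with median centring and under either fold threshold, 1 without the filter, 4 at a detection p under 0.01, 7 with array weights, and 1 to 4 with 1 array left out. The cause of these shifts was not tested.

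In no comparison did all 3 pairs of arrays with the same replicate number correlate over 0.1, so the arrays were fitted without pairing. This cutoff cannot show that they were unpaired. By title number, MM1R Dex and untreated arrays had r of 0.07, 0.40 and 0.31. With the replicate number as a block, 2 kinesins were called with the mimetic in MM1S cells by either numbering in the labels (KIF2C and KIF23), and 5 for Dex minus mimetic by the number in the descriptions. Low signal over background limits KIF18A and the second KIF23 probe.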
